A study of Mus musculus with 6 samples.

Results

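The ERK feedback and ETS target genes are transcripts read as output of the ERK mitogen-activated protein kinase pathway. The members were taken by symbol: Dusp4, Dusp5, Dusp6, Spry1, Spry2, Spry4, Spred1, Spred2, Etv4 and Etv5. All 10 were among the 21718 genes of the deposited count table, and all 10 passed the filter on low counts that left 15963 genes for testing. None of the 10 was shown to differ with the marrow the mice had received. Across both groups, F10-intact sample 4 was the lowest of all 6 samples for 6 members and the highest for 2. The same sample was the lowest for 27.8% and the highest for 27.0% of all genes tested.

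Bulk poly-A RNA was sequenced from castration-resistant prostate tumours of mice that develop prostate cancer through an engineered alteration. The first group received marrow from F10fl/fl; LysM-Cre+ donors (F10-deleted, 3 samples), and the second received marrow from F10fl/fl donors without the Cre (F10-intact, 3 samples). F10 encodes coagulation factor X, and LysM-Cre acts in myeloid cells such as macrophages and neutrophils, so cells of the recipient that survive irradiation, and all non-myeloid cells, keep F10 in both groups. Every recipient, in both groups, carried that alteration, was irradiated with 900 rad at 6 weeks of age, was castrated at 8 weeks and had its tumour removed 16 weeks later, at 24 weeks. Samples are numbered 1, 3 and 4 in each group, and per-sample values below follow that order. Nothing in the labels ties a sample to its own mouse, and p-values therefore reflect the spread among these samples alone, which may be technical.

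In this pathway, a growth factor receptor switches RAS on, RAS starts the RAF, MEK and ERK kinases, and active ERK enters the nucleus and acts on transcription factors, many of them of the ETS family. Among the genes it induces are its own brakes. Dual-specificity phosphatases remove the activating phosphates from ERK, Sprouty proteins act on the steps between receptors and RAF, and SPRED proteins bring neurofibromin to RAS and so switch it off. Etv4 and Etv5 encode ETS factors of the PEA3 group that lie downstream of fibroblast growth factor signalling.

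The totals ranged from 9237308 to 11559980 counts in the F10-deleted samples and from 10520465 to 11821588 counts in the F10-intact samples. F10 itself had 7, 4 and 9 counts in the F10-deleted samples and 2, 6 and 17 counts in the F10-intact samples, too few in whole tumour to check the labels. On the first principal component of log2 CPM (counts scaled to library size), with 49.1% of the variance, F10-intact sample 4 stood at 91.6 and the other samples between -36.7 and 12.5. Luminal epithelial markers were detected in every sample, with summed levels of 4750 to 5293 CPM in the F10-deleted samples and 4754 to 6030 CPM in the F10-intact samples. Skeletal muscle markers were higher on average in the F10-deleted group for 5 of 5 genes, with sums of 595 to 1476 CPM against 7.35 to 86.3 CPM in the F10-intact samples. Macrophage markers, from cells in which LysM-Cre acts, summed to 243 to 329 CPM in the F10-deleted samples and 299.9 to 346 CPM in the F10-intact samples.

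Per unit of transcript length, Spry2 and Dusp6 were the most abundant members. Levels were expressed as TPM (counts divided by merged exon length and scaled to the same sum in every sample), averaged over the 6 samples of both groups. Spry2 stood at 56.7 ± 5.68 TPM, Dusp6 at 46.0 ± 9.68 TPM and Spry1 at 33.8 ± 6.09 TPM (SD, n = 6). Spred2 followed at 21.9 ± 5.29 TPM, Spred1 at 18.1 ± 3.70 TPM and Dusp5 at 11.05 ± 2.63 TPM. A gap followed in the order of means, since the lowest Dusp5 sample, at 8.15 TPM, was above the highest Etv5 sample, at 7.21 TPM. Etv5 had 5.51 ± 1.40 TPM, Dusp4 5.33 ± 3.05 TPM, Etv4 3.64 ± 0.908 TPM and Spry4 1.55 ± 0.804 TPM (SD, n = 6). Dusp4 reached 10.9 TPM in F10-deleted sample 3, within the Dusp5 range. Etv4 and Spry4 also had ranges that did not overlap, whereas the ranges of the other neighbours in this order overlapped. Within a sample, some neighbours changed places: Spry2 exceeded Dusp6 in 5 of 6 samples, Dusp6 exceeded Spry1 in 5 of 6, Spry1 exceeded Spred2 in 5 of 6 and Spred1 exceeded Dusp5 in 5 of 6, Etv5 exceeded Dusp4 in 5 of 6, and Dusp4 exceeded Etv4 in only 4 of 6.

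**Figure D1:**
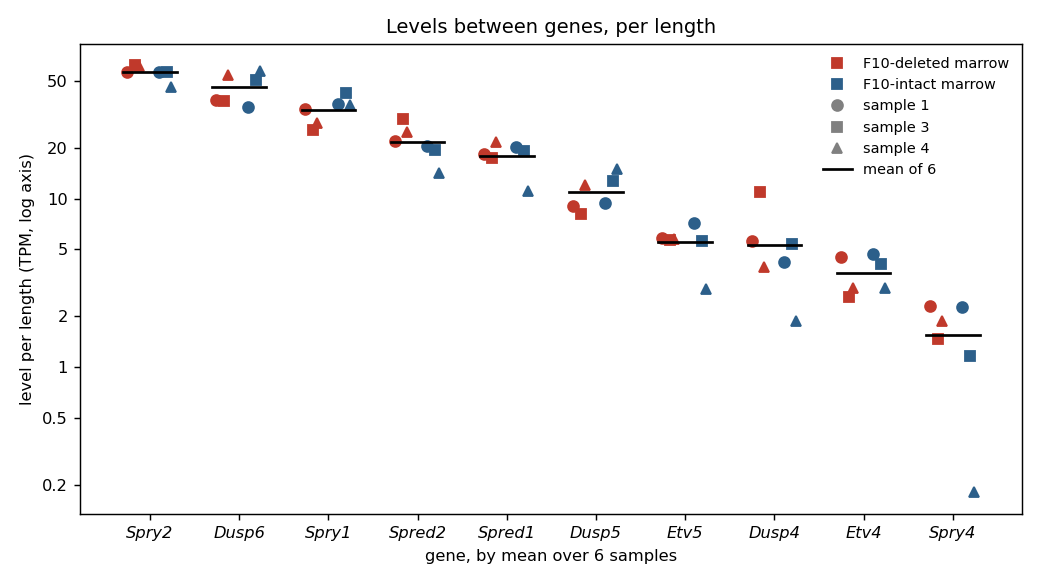
Level of each member per length (TPM, log axis) in the 3 F10-deleted samples (red) and the 3 F10-intact samples (blue), with a line at the mean of all 6; genes run from the highest mean to the lowest. The levels span from 56.7 TPM for Spry2 to 1.55 TPM for Spry4, and the single point below 0.2 TPM is Spry4 in F10-intact sample 4.

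Differences by marrow were tested with the edgeR quasi-likelihood test over all 15963 genes, with p-values adjusted by the Benjamini-Hochberg method and a threshold of 0.05. Of the 10 members, 0 passed, against 0.0439% of all genes tested, and 0 passed with DESeq2 or limma-voom. At an unadjusted p under 0.05, 1 of 10 members was lower and 0 were higher in the F10-deleted group, where 4.74% of all genes were lower and 6.15% were higher. The groups did not overlap for 2 of 10 members, 1 in each direction, against 16.7% of all genes. The members' log2 fold changes (F10-deleted over F10-intact) ran from -0.52 to 0.71 with a median of 0.04, beside a median of -0.02 over all genes tested. With F10-intact sample 4 left out, the members' median was -0.09 and 3 of 10 were above 0, in place of 6 of 10. In whole tissue, fewer cells of a type and less RNA per cell cannot be told apart.

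**Figure D2:**
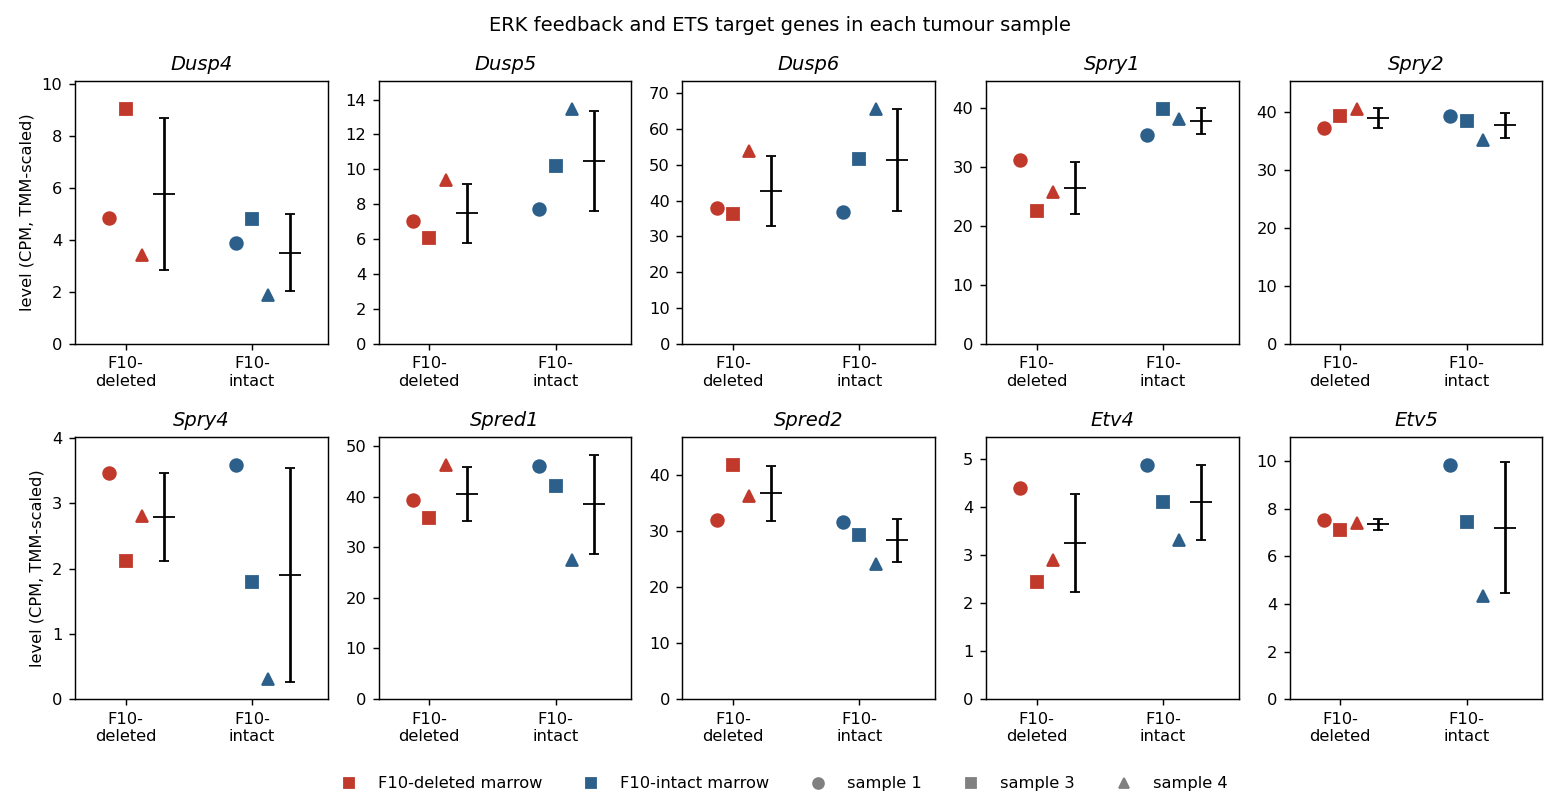
Level of each member (CPM with TMM scaling, axes from 0) in each tumour sample, F10-deleted in red on the left of each panel and F10-intact in blue on the right, with the mean and SD of 3 samples as black bars. The groups are separate for Spry1 and Spred2 and overlap for the other 8 genes.

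Of the dual-specificity phosphatases, Dusp6 and Dusp5 were lower on average in the F10-deleted group and Dusp4 higher, each with overlapping groups. Dusp6, a cytoplasmic phosphatase with a strong preference for ERK, lies on chromosome 10 from 99263231 to 99267489 on the plus strand (GRCm38, ENSMUSG00000019960). Its level was 37.9, 36.3 and 54.0 CPM in the F10-deleted samples and 36.8, 51.8 and 65.6 CPM in the F10-intact samples. The 2 samples numbered 4 were the highest of their groups, and F10-intact samples 1 and 3 lay within the range of the F10-deleted samples. This gave Dusp6 a log2 fold change of -0.27 (95% interval -0.84 to 0.31, edgeR adjusted p = 0.760). Leaving out 1 sample moved this value between -0.05 (F10-intact sample 4) and -0.47 (F10-deleted sample 4), with -0.13 for F10-deleted sample 3, -0.15 for F10-deleted sample 1 and -0.42 for F10-intact sample 1.

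Dusp5, a nuclear phosphatase for ERK, lies on chromosome 19 from 53529109 to 53542431 on the plus strand (ENSMUSG00000034765). It had 7.02, 6.08 and 9.36 CPM in the F10-deleted samples and 7.74, 10.2 and 13.5 CPM in the F10-intact samples. The order of the samples resembled that of Dusp6, with the highest level in F10-intact sample 4 and the lowest in F10-deleted sample 3. For Dusp5 the log2 fold change was -0.48 (95% interval -1.15 to 0.19, edgeR adjusted p = 0.614). It was -0.26 when F10-intact sample 4 was left out and -0.31 when F10-deleted sample 3 was. Between samples of the same number, Dusp5 was lower in the F10-deleted sample in 3 of 3 pairs. Members with separate groups also had every pair in the same direction, Spry1 lower and Spred2 higher. The share over all genes tested was not computed for this count, nor for those of Dusp4 and Etv4 below. With the number as a block, the unadjusted edgeR p of Dusp5 was 0.0809 and its adjusted p 0.399. The annotation places an antisense gene, AC137853.2, over 547 exonic bases of Dusp5, and whether the authors counted by strand is not given in the sources used here.

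Dusp4, a nuclear phosphatase that acts on ERK and on stress kinases, lies on chromosome 8 from 34807297 to 34819894 on the plus strand (ENSMUSG00000031530). Its level was 4.82, 9.03 and 3.40 CPM in the F10-deleted samples and 3.87, 4.79 and 1.86 CPM in the F10-intact samples. F10-deleted sample 3 was the highest and F10-intact sample 4 the lowest, a 4.85-fold range, while the 4 samples between them lay close together. Dusp4 differed by 0.71 on the log2 scale (95% interval -0.40 to 1.82, edgeR adjusted p = 0.651). Leaving out F10-deleted sample 3 gave 0.25, and leaving out F10-intact sample 4 gave 0.41. Between samples of the same number, Dusp4 was higher in the F10-deleted sample in 3 of 3 pairs, and with the number as a block its unadjusted edgeR p was 0.0511 and its adjusted p 0.347. F10-deleted sample 3 also had the highest urothelial markers, summed at 851 CPM against 114 to 138 CPM in the other F10-deleted samples, and their part in the Dusp4 level was not tested.

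The promoter windows of Dusp5 and Dusp6 are shown because both phosphatases were highest in F10-intact sample 4 and lowest in F10-deleted sample 3. Each window runs from 250 bases before to 50 bases after a RefSeq transcription start (GRCm38.p6), and capitals mark matches on either strand to 4 motifs: the ETS hexamer CGGAAG, the CArG box of serum response factor, the AP-1 site TGANTCA and the cyclic AMP response half-site TGACG. No marked motifs of different kinds overlapped in the windows shown.
Dusp5, chr19:53528895-53529194, plus strand: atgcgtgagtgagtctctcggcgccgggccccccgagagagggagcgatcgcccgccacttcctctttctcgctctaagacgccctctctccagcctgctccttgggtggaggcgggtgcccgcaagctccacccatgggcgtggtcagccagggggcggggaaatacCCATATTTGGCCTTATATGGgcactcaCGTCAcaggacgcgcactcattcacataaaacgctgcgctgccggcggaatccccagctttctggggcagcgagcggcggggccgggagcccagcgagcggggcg
Dusp6, chr10:99262981-99263280, plus strand: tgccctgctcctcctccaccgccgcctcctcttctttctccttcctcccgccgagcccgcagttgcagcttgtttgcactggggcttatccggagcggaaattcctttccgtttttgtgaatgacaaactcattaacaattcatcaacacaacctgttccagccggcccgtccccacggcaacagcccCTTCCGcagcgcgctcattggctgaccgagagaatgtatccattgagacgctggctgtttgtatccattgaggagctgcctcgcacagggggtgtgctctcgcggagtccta
Counted from 0 at the start, the Dusp5 window held CArG boxes at -82 to -73 and at -72 to -63 and a half-site TGACG at -55 to -51, with no CGGAAG. The Dusp6 window held CGGAAG at -62 to -57 and no match to the other 3 motifs. Of all 32851 RefSeq promoter windows of this length, 1.63% held a CArG box, 16.9% held CGGAAG, 20.8% held TGACG and 7.81% held TGANTCA. These matches describe letters in the windows and do not show binding.

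Among the Sprouty genes, Spry1 had the smallest p of the 10 members, Spry2 was nearly level in all samples, and Spry4 varied more than any other member. Spry1 lies on chromosome 3 from 37639947 to 37644598 on the plus strand (ENSMUSG00000037211). It had 31.1, 22.5 and 25.7 CPM in the F10-deleted samples and 35.5, 39.8 and 38.2 CPM in the F10-intact samples. Every F10-deleted sample was below every F10-intact sample, which held for 7.67% of all genes tested in this direction. The means were 26.4 ± 4.38 CPM in the F10-deleted group and 37.8 ± 2.18 CPM in the F10-intact group (SD, n = 3 each). On the log2 scale the difference was -0.52 ± 0.16 (SE, 95% interval -0.89 to -0.14), with an unadjusted edgeR p of 0.0133 and an adjusted p of 0.301, so Spry1 did not pass. Over the alternatives run, its log2 fold change stayed between -0.62 and -0.38 and its adjusted p between 0.176 and 0.820. Summed skeletal muscle, basal epithelial and endothelial markers also separated the groups, and their part in the Spry1 values was not tested. A gene model on the opposite strand, Gm42922, shares 710 exonic bases with Spry1 and had 7 counts over all 6 samples.

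The Spry1 promoter window is shown as that of the member with the smallest p, with capitals for the same 4 motifs.
Spry1, chr3:37639697-37639996, plus strand: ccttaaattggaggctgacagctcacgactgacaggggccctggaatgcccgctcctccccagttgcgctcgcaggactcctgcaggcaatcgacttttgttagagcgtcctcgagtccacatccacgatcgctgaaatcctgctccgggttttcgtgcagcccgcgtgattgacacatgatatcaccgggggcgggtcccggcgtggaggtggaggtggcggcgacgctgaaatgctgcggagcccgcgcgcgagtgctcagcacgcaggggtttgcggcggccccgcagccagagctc
It held no match to any of the 4, and is therefore printed in lower case throughout.

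Spry2 lies on chromosome 14 from 105891947 to 105896819 on the minus strand (ENSMUSG00000022114). It had 37.1, 39.2 and 40.4 CPM in the F10-deleted samples and 39.3, 38.4 and 35.2 CPM in the F10-intact samples. The highest sample was only 1.15 times the lowest, and the within-group SD of 0.07 on the log2 scale was lower than that of nearly all genes tested, at percentile 2.20. For Spry2 the log2 fold change was 0.05 (95% interval -0.25 to 0.35, edgeR adjusted p = 0.935), which in linear terms is a ratio of 1.03 with an interval of 0.841 to 1.27.

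Spry4 lies on chromosome 18 from 38586247 to 38601415 on the minus strand (ENSMUSG00000024427). It had 33, 25 and 33 counts in the F10-deleted samples and 39, 21 and 3 counts in the F10-intact samples, or 3.46, 2.11 and 2.81 CPM against 3.59, 1.80 and 0.31 CPM. A single sample, F10-intact 4, stood far below the other 5. The exact Poisson interval of its 3 counts is 0.0640 to 0.907 CPM, and that of the next lowest sample, F10-intact 3, is 1.11 to 2.75 CPM, so the gap exceeded counting error. Spry4 differed by 0.54 on the log2 scale (95% interval -1.05 to 2.13, edgeR adjusted p = 0.838). The value was 0.05 once F10-intact sample 4 was left out and was 1.39 once F10-intact sample 1 was left out. The within-group SD of Spry4, 1.09 on the log2 scale, was at percentile 96.3 of all genes tested.

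The SPRED genes were higher on average in the F10-deleted group, Spred2 with separate groups and Spred1 with overlapping ones. Spred2 lies on chromosome 11 from 19924375 to 20024026 on the plus strand (ENSMUSG00000045671). Its level was 32.0, 41.8 and 36.3 CPM in the F10-deleted samples and 31.6, 29.3 and 24.0 CPM in the F10-intact samples. The groups were separate by a narrow margin, since F10-deleted sample 1 and F10-intact sample 1 were nearly equal, and 8.99% of all genes tested were separate in this direction. Spred2 differed by a log2 value of 0.37 ± 0.17 (SE, 95% interval -0.02 to 0.77, edgeR adjusted p = 0.483).

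Spred1 lies on chromosome 2 from 117121374 to 117182279 on the plus strand (ENSMUSG00000027351). It had 39.4, 35.8 and 46.3 CPM in the F10-deleted samples and 46.0, 42.2 and 27.4 CPM in the F10-intact samples. The level was lowest in F10-intact sample 4, and the other F10-intact samples lay within or near the F10-deleted range. For Spred1 the log2 fold change was 0.07 (95% interval -0.43 to 0.57, edgeR adjusted p = 0.941). Its sign turned when F10-intact sample 4 (-0.12) or F10-deleted sample 4 (-0.04) was left out.

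The SPRED promoter windows are shown because both genes were lowest in F10-intact sample 4, where Dusp5 and Dusp6 were highest, with capitals for the same 4 motifs.
Spred1, chr2:117120821-117121120, plus strand: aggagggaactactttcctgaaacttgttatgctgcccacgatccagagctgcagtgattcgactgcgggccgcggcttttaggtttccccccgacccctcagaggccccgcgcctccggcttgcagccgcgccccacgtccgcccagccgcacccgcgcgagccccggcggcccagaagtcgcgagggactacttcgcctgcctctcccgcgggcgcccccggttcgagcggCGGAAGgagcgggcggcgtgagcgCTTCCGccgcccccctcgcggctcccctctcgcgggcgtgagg
Spred2, chr11:19924192-19924491, plus strand: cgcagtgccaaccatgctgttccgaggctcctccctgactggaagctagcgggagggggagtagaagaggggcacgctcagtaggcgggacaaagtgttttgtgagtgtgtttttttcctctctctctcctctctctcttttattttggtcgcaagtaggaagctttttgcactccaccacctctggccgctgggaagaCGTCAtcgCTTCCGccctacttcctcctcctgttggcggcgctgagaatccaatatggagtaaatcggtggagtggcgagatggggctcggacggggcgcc
The Spred1 window held CGGAAG at -17 to -12 and at 7 to 12. In the Spred2 window CGGAAG lay at -43 to -38 and TGACG at -51 to -47. The hexamer CGGAAG thus occurred in the windows of Dusp6, Spred1 and Spred2, and not in those of Dusp5, Spry1, Spry2 or Etv5. The shorter ETS core GGAA, held by 96% of all windows, was not marked. It occurred in every member window examined except 1 of the 2 of Etv5. Of the 10 members, 7 had a window examined here, and Dusp4, Spry4 and Etv4 did not. The occurrence of CGGAAG is therefore described for those 7 alone.

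The ETS factor genes did not separate the groups. Etv4 lies on chromosome 11 from 101769742 to 101785371 on the minus strand (ENSMUSG00000017724). It had 4.40, 2.45 and 2.89 CPM in the F10-deleted samples and 4.88, 4.11 and 3.31 CPM in the F10-intact samples. F10-deleted sample 1 lay within the F10-intact range and the other 2 F10-deleted samples below it, at a log2 fold change of -0.34 (95% interval -1.13 to 0.45, edgeR adjusted p = 0.778). Etv4 was lower in the F10-deleted sample in 3 of 3 pairs of the same number, with an adjusted edgeR p of 0.593 with the block. Its value was -0.15 when F10-deleted sample 3 was left out, -0.17 when F10-intact sample 1 was and -0.58 when F10-deleted sample 1 was. Etv5 lies on chromosome 16 from 22381309 to 22439719 on the minus strand (ENSMUSG00000013089). Its level was 7.55, 7.09 and 7.41 CPM in the F10-deleted samples and 9.86, 7.44 and 4.35 CPM in the F10-intact samples. The F10-deleted samples lay inside the F10-intact range, between its highest sample, 1, and its lowest, 4. The group means were almost equal, at 7.35 ± 0.232 CPM in the F10-deleted group and 7.21 ± 2.76 CPM in the F10-intact group (SD, n = 3 each). For Etv5 the log2 fold change was 0.02 (95% interval -0.72 to 0.77, edgeR adjusted p = 0.987), and its sign turned, to -0.24, when F10-intact sample 4 was left out.

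**Figure D3:**
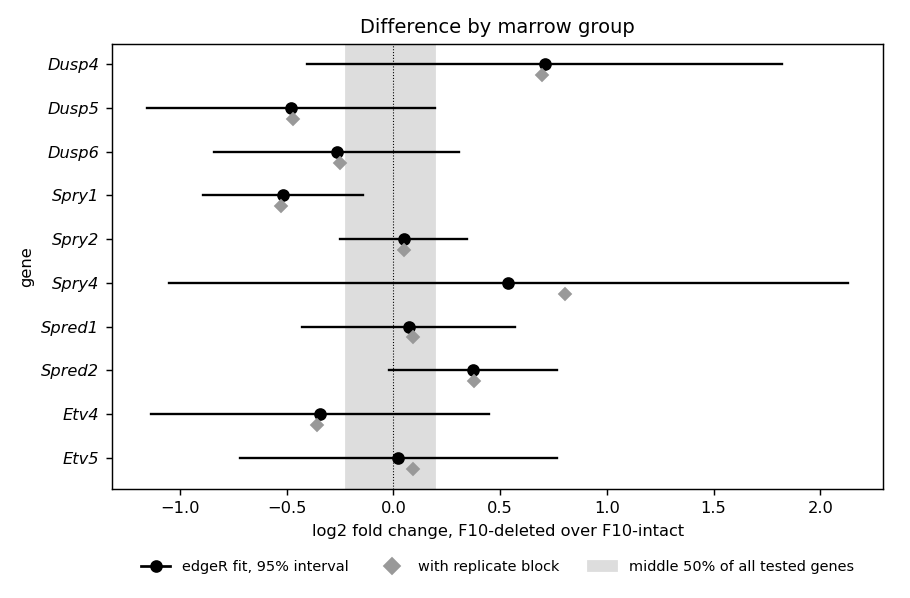
Log2 fold change of each member (F10-deleted over F10-intact) in the edgeR fit with its 95% interval (black) and in the fit with the replicate number as a block (grey diamonds), beside the middle 50% of all tested genes (grey band, -0.22 to 0.19). The interval leaves out 0 for Spry1 alone, before adjustment for the number of genes tested.

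Set against its own mean over the 6 samples, each member showed where the samples stood apart, and the members did not move as a block. F10-intact sample 4 was the lowest of the 6 for 6 members (Dusp4, Spry2, Spry4, Spred1, Spred2 and Etv5) and the highest for 2 (Dusp5 and Dusp6). Over all genes tested this sample was the lowest for 27.8% and the highest for 27.0%, the largest shares of any sample in both directions. In that sample Spry4 was 2.11 log2 units below its mean, Dusp4 1.09, Etv5 0.68, Spred1 0.50 and Spred2 0.41 below, while Dusp5 was 0.62 and Dusp6 0.51 above. F10-deleted sample 3 was the lowest for 4 members (Dusp5, Dusp6, Spry1 and Etv4) and the highest for 2 (Dusp4 and Spred2), where it was lowest for 15.2% and highest for 17.2% of all genes. The other 4 samples were the lowest for 0 members. In F10-intact sample 4 the markers of several cell types were also low: it was the lowest sample for 4 of 4 basal epithelial, 4 of 4 smooth muscle and 3 of 4 endothelial markers, and for 5 of 5 skeletal muscle and 4 of 4 urothelial markers. The basal markers Krt5, Krt14, Krt15 and Trp63 summed to 757 CPM there, against 1238 to 1879 CPM in the other F10-intact samples and 2104 to 3541 CPM in the F10-deleted samples. Smooth muscle markers summed to 763 to 1573 CPM in the F10-deleted samples and 499.6 to 2018 CPM in the F10-intact samples, and endothelial markers to 39.4 to 51.4 CPM against 19.5 to 37.9 CPM. Neutrophil markers were highest in F10-intact sample 4, at 233 CPM, against 88.7 to 118 CPM in the F10-deleted samples. The part of these cell types in the member levels was not tested.

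**Figure D4:**
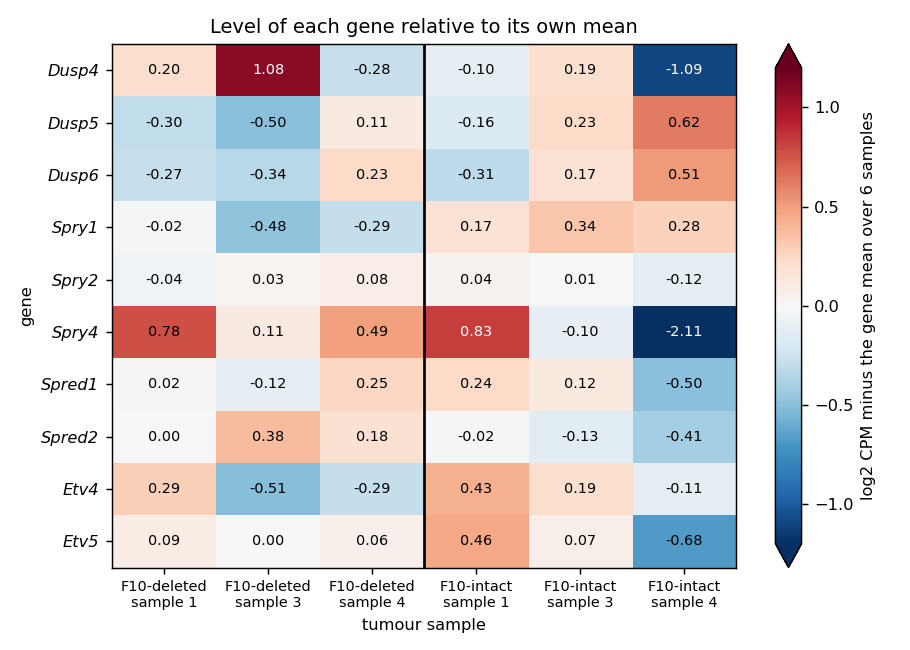
Log2 CPM of each member minus its mean over the 6 samples, with F10-deleted samples left of the line and F10-intact samples right of it; red is above and blue below the mean, and colours saturate at 1.2 log2 units. F10-intact sample 4 holds the lowest value of 6 genes, down to -2.11 for Spry4, together with the highest values of Dusp5 and Dusp6.

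The mean of the 10 profiles stood at 0.07, -0.03 and 0.05 log2 units in the F10-deleted samples. In the F10-intact samples it stood at 0.16, 0.11 and -0.36, with F10-intact sample 4 below the other 5. The median of the 10 in that sample was -0.27, and the mean there includes Spry4 at -2.11, from 3 counts. Spred1 and Spry2 lay nearest to the mean profile, with root-mean-square differences of 0.11 and 0.13 log2 units over the 6 samples. Spry4 lay farthest from it, at 0.84. This distance can also be small for a gene that hardly varies, such as Spry2, at -0.12 in F10-intact sample 4. Among 10551 other genes of at least 10 CPM, those nearest to this mean profile were Degs1, a desaturase of ceramide synthesis, Rpl4, a ribosomal protein, Eef1b2, a translation elongation factor, Dgkd, a diacylglycerol kinase, and Gtf3c5, a subunit of a transcription factor of RNA polymerase III. Their root-mean-square differences from it were 0.0356 to 0.0442 log2 units, where the median of all these genes was 0.290.

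The rest of the pathway was described from 7 lists, and 0 genes of any list passed the edgeR test. The RAS to ERK cascade, with 19 genes tested, had a median log2 fold change of 0.02. At an unadjusted p under 0.05 it had 0 higher and 1 lower, against 6.15% and 4.74% of all genes. Its gene with the smallest p was Araf, a RAF kinase, at 160, 127 and 128 CPM in the F10-deleted samples and 189, 165 and 205 CPM in the F10-intact samples. The Araf groups were separate. Of the 19 genes, 1 was separate and higher and 1 separate and lower, against 8.99% and 7.67% of all genes. For Araf the log2 value of the difference was -0.43 ± 0.15 (SE, adjusted p = 0.346 by edgeR). Ksr1, a scaffold of the cascade, was next, at 0.74 ± 0.36 (SE, edgeR adjusted p = 0.514). Of the 9 tested genes of the other brakes and the 6 of the other dual-specificity phosphatases, 0 passed an unadjusted p under 0.05, with medians of 0.03 and -0.10. Those with the smallest p were Pebp1, which binds RAF, at -0.31, and Spred3, a paralogue of the members, at -0.45, and among the phosphatases Dusp10, which acts on stress kinases, at -0.41, and Dusp8 at -0.35, with edgeR adjusted p of 0.472 to 0.711.

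Other ETS factors included 2 genes higher and 1 lower of 16 at an unadjusted p under 0.05, against 6.15% and 4.74% of all genes. The median of those tested was 0.06. Ets1, a founding member of the family expressed in endothelium and lymphocytes, had 53.6, 59.8 and 54.7 CPM in the F10-deleted samples and 37.9, 37.8 and 27.9 CPM in the F10-intact samples. Elk3, an ETS factor that works with serum response factor, had 72.1, 78.0 and 75.9 CPM against 55.7, 49.6 and 54.7 CPM in the F10-intact samples. Both, named for their small p, were higher in every F10-deleted sample than in any F10-intact sample. Of the 16 genes, 4 were separate and higher and 1 separate and lower, against 8.99% and 7.67% of all genes. The log2 differences were 0.70 ± 0.16 for Ets1 and 0.50 ± 0.12 for Elk3 (SE, edgeR adjusted p = 0.174 and 0.195). Endothelial markers were higher on average in the F10-deleted group for 4 of 4 genes, and their part in these values was not tested.

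Of 13 other ERK-responsive transcripts, 2 were higher and 0 lower at an unadjusted p under 0.05, against 6.15% and 4.74% of all genes. Their median was 0.17. Epha2, a receptor of the ephrin family, had 25.4, 30.0 and 20.1 CPM in the F10-deleted samples and 15.2, 12.1 and 10.6 CPM in the F10-intact samples, or 0.99 ± 0.22 on the log2 scale (SE, edgeR adjusted p = 0.155). Egr2, an early growth response factor, was at 0.88 ± 0.33 (SE, edgeR adjusted p = 0.380). Both, named for their small p, had separate groups. Of the 13 genes, 2 were separate and higher and 0 separate and lower, against 8.99% and 7.67% of all genes.

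The receptor tyrosine kinases had 2 of 11 higher and 0 lower at an unadjusted p under 0.05, against 6.15% and 4.74% of all genes. Their median was 0.22. Fgfr3, a fibroblast growth factor receptor, had 45.5, 42.8 and 39.5 CPM in the F10-deleted samples and 30.6, 20.4 and 26.3 CPM in the F10-intact samples, or 0.72 ± 0.18 on the log2 scale (SE, edgeR adjusted p = 0.199). Kit, the stem cell factor receptor, was at 0.70 ± 0.22 (SE, edgeR adjusted p = 0.311). At the same unadjusted p, 2 of 12 ligands tested were higher and 0 lower, with a median of 0.12. The ligands' log2 fold changes ran from -0.94 to 2.25, with 8 of 12 above 0. Areg, the epidermal growth factor receptor ligand amphiregulin, had 2.52, 3.71 and 7.75 CPM in the F10-deleted samples and 1.66, 0.342 and 0.931 CPM in the F10-intact samples, or 2.25 ± 0.64 on the log2 scale (SE, edgeR adjusted p = 0.258). Tgfa, another ligand of that receptor, was at 0.59 ± 0.23 (SE, edgeR adjusted p = 0.417). These 4 genes, named for their small p, had separate groups. Over the whole lists, 2 of 11 receptors and 2 of 12 ligands were separate and higher. Separate and lower were 0 receptors and 1 ligand. The shares of all genes with separate groups were 8.99% higher and 7.67% lower.

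DESeq2 called 487 genes, 3.18% of those it gave an adjusted p, in place of 7 with edgeR. Of the pathway lists it called Ets1, Elk3, Epha2, Fgfr3 and Areg higher and Spdef lower, with adjusted p from 0.00804 to 0.0391, and 0 of the 10 members. Spdef, an ETS factor of secretory epithelium, is named here after its values were seen. It had 39.8, 24.2 and 34.5 CPM in the F10-deleted samples and 49.5, 68.1 and 149 CPM in the F10-intact samples, or -1.43 ± 0.42 on the log2 scale (SE, edgeR adjusted p = 0.283).

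**Figure D5:**
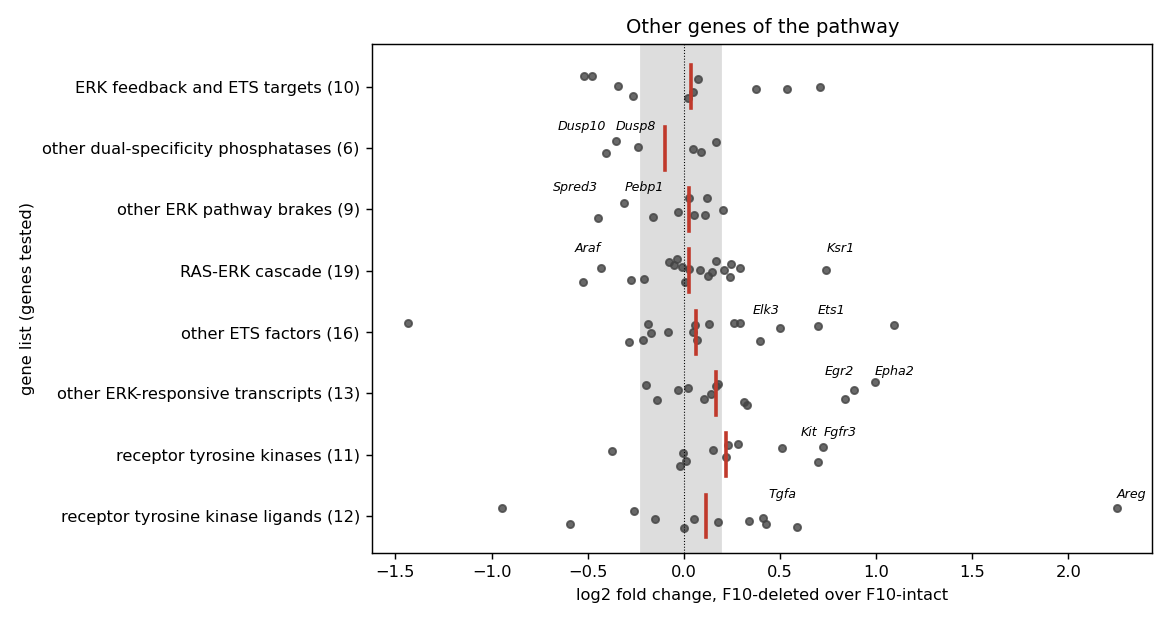
Log2 fold change (F10-deleted over F10-intact) of every tested gene of the members and of 7 other pathway lists (points), with the median of each list (red bar) and the middle 50% of all tested genes (grey band). The named points are the 2 genes with the smallest p of each list other than the members; the medians run from -0.10 for the other dual-specificity phosphatases to 0.22 for the receptor tyrosine kinases.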

How the data were processed

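RNA was measured in 6 samples of whole prostate tumour, 3 per group. The authors deposited raw gene counts for all of them in a single table. Per the submitters' processing notes, reads were aligned with STAR 2.7.10a and the build was GRCm38; DESeq2 is also named there. How reads were assigned to genes, and whether by strand, is not given in the sources used here. Symbols, coordinates and merged exon lengths came from GENCODE M21 on GRCm38, which matched 21592 of 21718 identifiers. The totals of 9237308 to 11821588 counts set the precision, and exact Poisson intervals (95%) cover counting error alone.

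Testing used the edgeR 4.0.16 (R 4.3.3) robust quasi-likelihood method with TMM factors and filterByExpr at a minimum count of 10, over all 15963 genes kept. CPM values use the TMM factors, and centred profiles use log2 CPM with a prior count of 2. The procedure was tested on simulated data. The alternatives changed the scaling (RLE, upper quartile), the filter (none, or at least 1 CPM in at least 3 samples), the tool (DESeq2 1.42.0, limma-voom from limma 3.58.1, edgeR without robust estimation) or the threshold (0.1), added the replicate number as a block, or left out 1 sample.

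All members are named, with the 2 genes of smallest p from each other list and the 5 genes outside the lists nearest to the mean member profile. The members and lists were chosen with earlier results of these data known. Deviations from the group means correlated over genes at 0.350, 0.135 and 0.181 between the samples numbered 1, 3 and 4. Between samples of different numbers these correlations ran from -0.247 to 0.0682. Because each value for the same number was over 0.1, the number was added as a block in an alternative fit. The main fit, its intervals and its adjusted p-values were unpaired, since the labels state no shared day or litter. Chi-square per degree of freedom between samples of 1 group was 22.3 to 77.5, so none was counted as a library sequenced again. This value compares samples with counting error alone. It cannot tell separate preparations of 1 tumour from separate tumours. The gene altered in all recipients and 1 luminal marker are not reported here.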

Additional observations from a re-analysis of the deposited data

How the results depend on the processing

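The count of members called stayed at 0 under every alternative run. With the replicate number as a block it was 0 too, the lowest adjusted p being 0.281 for Spry1, and the block changed no call in the lists. Over all genes, edgeR called 7, against 2 with the block, with limma-voom or with the CPM filter, 3 without robust estimation, 487 with DESeq2 and 0 to 72 when 1 sample was left out. The members' median log2 fold change was 0.07 with the block and ranged from -0.09 (F10-intact sample 4 left out) to 0.18 (F10-intact sample 1 left out). With DESeq2, 3 genes of the other ETS factors passed, 1 of the other ERK-responsive transcripts, 1 receptor tyrosine kinase and 1 ligand, where edgeR called 0 in each; the cause was not tested. Leaving out 1 sample moved Spred1 between -0.12 and 0.25, Spry2 between -0.0010 and 0.11 and Etv5 between -0.24 and 0.34. Their negative values came from leaving out F10-intact sample 4 and, for Spred1 at -0.04, also F10-deleted sample 4. The other 7 members kept their direction in all 14 alternative fits. Depth limits Spry4 most, with 3 to 39 counts per sample.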
